A study of Mus musculus with 8 samples.

Results

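Amino acid transporters were followed on expression arrays of sorted mouse CD4 T cells. The members were all probes whose gene symbol on the array platform begins with Slc1a, Slc3a, Slc6a, Slc7a, Slc36a, Slc38a or Slc43a and then a digit. The rule found 81 probes of 57 genes among the 25697 probes of the array. No measured value entered the rule. A probe was called detected on an array at a detection p under 0.01, and 19 probes of 16 genes were detected on at least 2 of the 8 arrays and were tested. The prefix also takes in Slc7a6os, which lies next to Slc7a6 and encodes no transporter but a protein tied to nuclear import of RNA polymerase II, and Slc43a3, a transporter of purine bases.

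The cells were taken from chimeric mice of C57BL/6 background, in which lethally irradiated B6.CD45.1 recipients were rebuilt with marrow of 2 donors and sorted more than 8 weeks later. The NIKtg donor carried a transgene for Map3k14, the gene of the kinase NIK, at the Gt(ROSA)26Sor locus, with Cre recombinase under the CD4 promoter (CD4Cre) and a foxp3RFP reporter. The WT donor was B6.Thy1.1/Foxp3RFP, without the transgene and without Cre. CD4+ cells were sorted as RFP+ Treg or RFP- Tconv, WT as Thy1.1+GFP- and NIKtg as Thy1.1-GFP+, which gave 4 groups of 2 arrays. Ages are not given in the sources used here. NIKtg and WT cells therefore differed in transgene, Cre, GFP and the Thy1 allele, and these cannot be told apart. Because the CD4 promoter drives Cre in developing T cells, Treg and Tconv of the NIKtg donor both carried the active transgene by label.

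Amino acids enter T cells through membrane carriers of several gene families. A large group works as pairs, in which the glycoprotein CD98 (Slc3a2) brings a light chain of the SLC7 family to the cell surface, and the light chain exchanges one amino acid for another. The pair of CD98 with LAT1 (Slc7a5) imports leucine and other large neutral amino acids and is known to be induced when T cells are activated. Carriers of the SLC38 family move glutamine and other small neutral amino acids, and some of them sit in the lysosome, where the growth regulator mTORC1 senses amino acids. When amino acids run short, the transcription factor ATF4 is known to raise genes for their uptake and synthesis.

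The arrays bore out the sort for Foxp3, whose log2 intensity lay between 13.19 and 13.57 in Treg and between 6.07 and 8.82 in Tconv. Within Tconv, Foxp3 read 8.05 and 8.82 on WT and 6.07 and 7.01 on NIKtg arrays (difference -1.89, SE 0.33, limma adjusted p = 0.0054). Map3k14 itself lay between 9.59 and 10.20 on the 8 arrays, with a NIKtg minus WT difference of 0.09 in Treg and -0.52 in Tconv, so its single probe did not show the transgene, and NIKtg is used below as the arrays are labelled. Nfkb2, a gene of the pathway that NIK starts, was higher on every NIKtg array than on every WT array of the same subset (differences of 1.02 and 1.46). Of 7 Treg markers, all were higher in Treg than in Tconv for both donors, and 4 were lower in NIKtg than in WT Treg (median -0.83). In Tconv 3 of the 7 were lower in NIKtg than in WT (median -0.29). The part of these markers in the NIK comparisons was not tested. Of 6 T cell markers on the array, 6 were detected on both arrays of every group. The mean unnormalized intensity of an array was 461.1 and 473.6 in NIKtg Treg and between 556.9 and 776.8 on the other 6 arrays. Nothing in the labels states whether both arrays of a group stem from different mice, and p-values then reflect the spread of these samples alone, which may be technical.

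**Figure D1:**
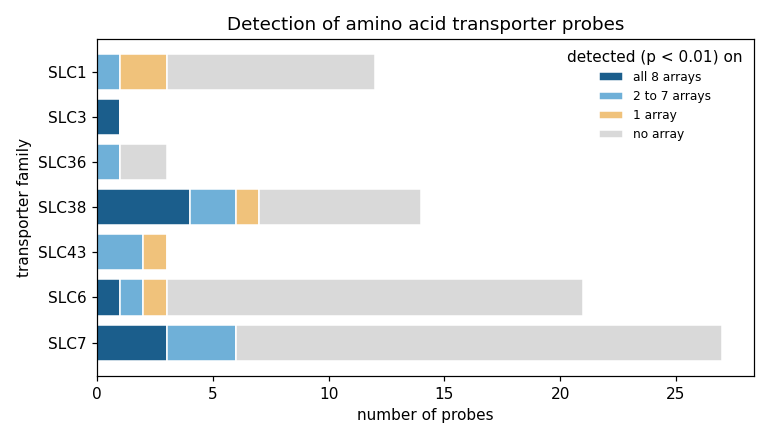
Number of probes (horizontal axis) of each transporter family (vertical axis), coloured by the number of arrays on which a probe was detected at a detection p under 0.01. Of 81 probes, 9 were detected on all 8 arrays, 10 on 2 to 7, 5 on 1 array and 57 on none.

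Most amino acid transporter probes gave no signal above the negative controls in any group. Of the 81 probes, 57 were detected on no array and 5 on 1 array. Per array, between 11 (NIKtg Tconv 2) and 17 (WT Tconv 1) of the 81 probes were detected. Among all 25697 probes, the same threshold called from 9826 (NIKtg Treg 2) to 10794 (NIKtg Tconv 1). The rule of at least 2 arrays kept 11526 probes of the whole platform and 19 of the 81. The detected share was thus lower for the transporter probes than for the platform, a gap that was not tested. The SLC6 family, which holds carriers of neurotransmitters as well as of amino acids, had 21 probes of 18 genes and 2 tested genes. The SLC1 family of glutamate and neutral amino acid carriers had 12 probes of 7 genes and 1 tested gene. The SLC7 family had 27 probes of 16 genes and 6 tested genes, and the SLC38 family 14 probes of 10 genes and 4 tested genes. With a looser detection p under 0.05, 30 of 81 probes were detected on at least 2 arrays. For 41 genes no probe was tested, and for 36 of these no probe was detected on any array.

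Several carriers known for their part in activated T cells were among the genes with no tested probe. Slc1a5, the glutamine carrier ASCT2, had 2 probes whose unnormalized intensities lay between 100.3 and 140.9, and the better of them was detected on 1 array. Slc38a1, a glutamine carrier of the plasma membrane, had 1 probe between 107.6 and 129.2 that was detected on no array. Both probes of Slc7a1, the main arginine importer of many cells, lay between 83.2 and 115.9 and were detected on no array. Slc7a11, which exchanges cystine for glutamate, lay between 89.8 and 111.4 and Slc7a8, a light chain related to LAT1, between 93.3 and 114.0, again on no array. A probe that is not detected has only an upper bound, and a poorly binding probe and a silent gene cannot be told apart here. The other untested genes were Slc1a1, Slc1a2, Slc1a3, Slc1a4 and Slc1a6, Slc36a1 and Slc36a2, Slc38a3, Slc38a5, Slc38a8, Slc38a10 and Slc38a11, and Slc43a3. In SLC6 they were Slc6a2 to Slc6a5, Slc6a7 to Slc6a9, Slc6a11 to Slc6a15, Slc6a17, Slc6a20a, Slc6a20b and Slc6a21, and in SLC7 they were Slc7a2, Slc7a3, Slc7a9 and Slc7a11 to Slc7a15.

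The 16 tested genes fell into 8 that were detected on all 8 arrays and 8 that passed with fewer. Those detected throughout were the heavy chain gene Slc3a2, the light chain genes Slc7a5 and Slc7a6, the SLC38 genes Slc38a2, Slc38a7 and Slc38a9, the taurine carrier gene Slc6a6, and Slc7a6os. Slc43a2 was detected on 7 arrays, Slc38a4 on 5, Slc7a4 on 4, Slc1a7 and Slc7a7 on 3, and Slc7a10, Slc36a3 and Slc6a19 on 2. Values below are normalized log2 intensities, and differences are log2 differences fitted by limma over all 7926 tested genes, with p-values adjusted over all of them. Intensities of different probes are not compared with each other. In sorted bulk cells, fewer expressing cells and less RNA per cell cannot be told apart.

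**Figure D2:**
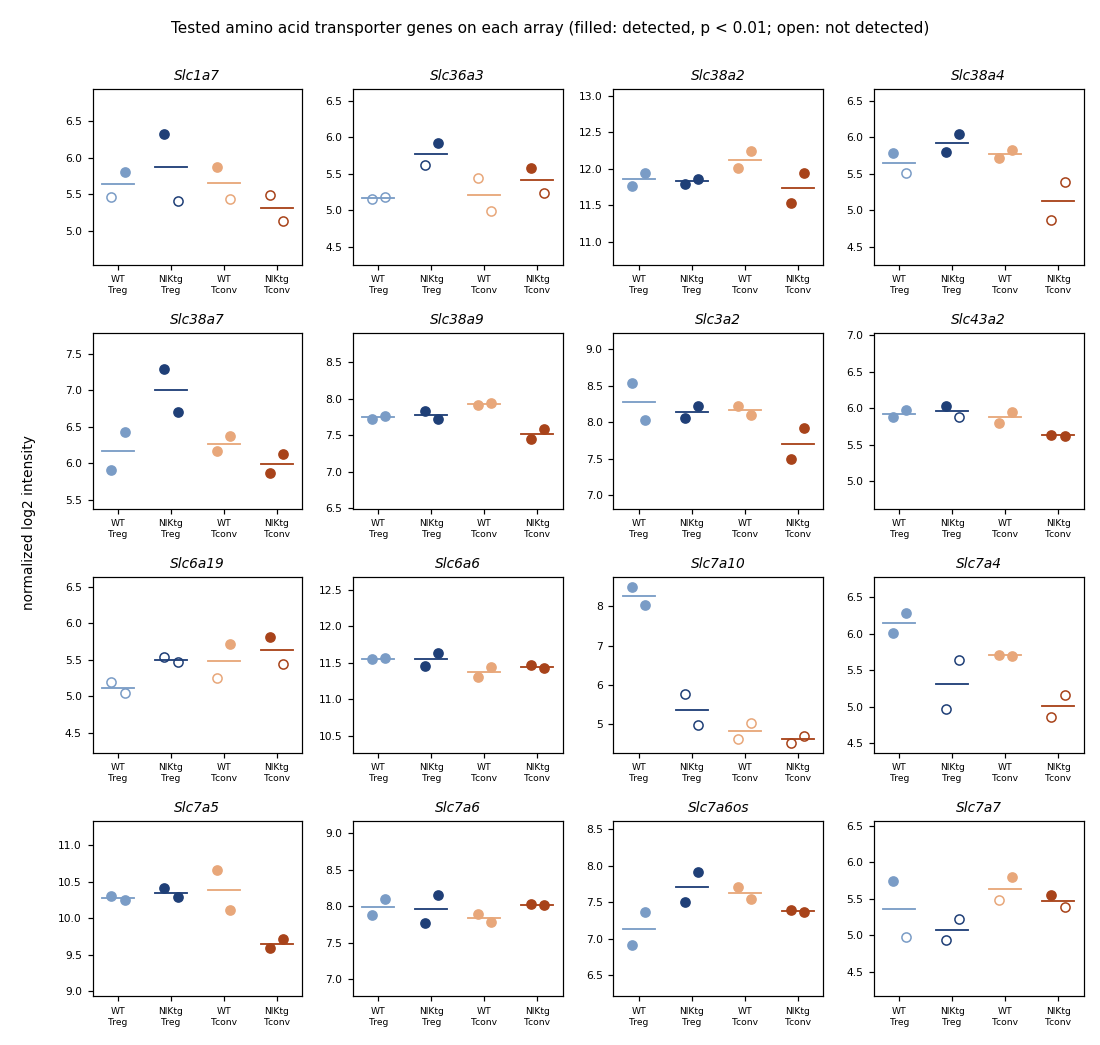
Normalized log2 intensity (vertical axis) of each of the 16 tested genes on the 8 arrays, in panels of unequal range. Each point is 1 array, filled where the probe was detected, and the line is the mean of the group's 2 arrays. Slc7a10 stands far above the other groups in WT Treg, and Slc7a5 is lower on both NIKtg Tconv arrays.

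The member with the largest difference was Slc7a10, the gene of asc-1, a light chain for small neutral amino acids and D-serine known mainly from brain and fat tissue. It was measured by 1 probe. The log2 intensity was 8.48 and 8.03 in WT Treg and 5.77 and 4.98 in NIKtg Treg. The Tconv arrays read 4.64 and 5.03 for WT and 4.53 and 4.70 for NIKtg. Both WT Treg arrays were thus above all others, and the probe was detected on no array outside WT Treg. Where no array of the dimmer group detected a probe, that group has only a bound, in which its arrays are set to the weakest signal called detected on them or to the probe's own signal, whichever is higher. By that bound Slc7a10 was at least 5.33-fold lower in NIKtg Treg than in WT Treg (fitted difference -2.88, SE 0.27, adjusted p = 0.00136) and at least 6.14-fold higher in WT Treg than in WT Tconv (3.42, SE 0.27, adjusted p = 0.000195). In Tconv the NIKtg minus WT difference was -0.22 (SE 0.27, adjusted p = 0.575), with both groups below detection. The NIK effects differed between the subsets by -2.67 (SE 0.39, adjusted p = 0.00237). Slc7a10 was testable only through WT Treg, so a difference was built into its entry. Without any filter on detection it still passed in these 3 comparisons. The folds depend on the background correction, for the fitted NIK difference in Treg was -1.62 without it and -1.65 in the authors' normalized values, and the difference between WT Treg and WT Tconv was 1.85 and 1.87. Slc7a10 passed under both. Myeloid markers moved the same way in Treg, with 3 of 6 tested lower in NIKtg Treg. Adgre1, C1qa and C1qb were detected on both WT Treg arrays and on neither NIKtg Treg array. Adgre1 and C1qb were also detected on both WT Tconv arrays, where Slc7a10 was not. The summed linear signal of the 9 myeloid markers on the array was 3486 to 3493 in WT Treg, 2760 to 2955 in NIKtg Treg, 2326 to 2410 in WT Tconv and 2453 to 2579 in NIKtg Tconv, while Itgam, Cd14 and Itgax were detected in no group. The summed signal of the 7 Treg markers was likewise 41590 to 43490 in WT Treg and 24750 to 28550 in NIKtg Treg. Of 4 tested B cell markers, 2 were lower and 1 was higher in NIKtg Treg. The part of any of these lists in the Slc7a10 result was not tested.

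Because NIK acts through NF-kB, the promoter of Slc7a10 is shown with every match to a loose NF-kB motif in capitals (GGG, any 5 bases, then CC, on both strands, adjoining matches running together), from 250 bases before to 50 after the start in RefSeq, build GRCm38.p6, at chr7:35186135-35186434, plus strand.
Slc7a10: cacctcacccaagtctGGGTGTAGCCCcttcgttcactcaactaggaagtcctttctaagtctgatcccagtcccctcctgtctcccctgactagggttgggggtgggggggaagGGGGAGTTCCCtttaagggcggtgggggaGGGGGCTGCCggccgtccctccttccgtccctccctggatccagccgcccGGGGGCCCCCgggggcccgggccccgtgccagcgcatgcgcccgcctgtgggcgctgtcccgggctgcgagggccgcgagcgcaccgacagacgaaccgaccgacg
A match only says that these letters occur. The same motif was found for 53.5% of all 27025 genes with a promoter in the table and for 9 of the 13 tested members that have one, and for 28 of 41 members with one in all.

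Slc7a4, a relative of the cationic amino acid carriers whose own transport activity is not established, was lower on NIKtg arrays of both subsets. The log2 intensity was 6.01 and 6.28 on WT and 4.97 and 5.64 on NIKtg Treg arrays, and 5.71 and 5.70 on WT and 4.87 and 5.16 on NIKtg Tconv arrays. Its probe was detected on all 4 WT arrays and on none of the 4 NIKtg arrays, so it too was testable only through groups in which it is high. In Treg it was at least 1.23-fold lower (fitted difference -0.84, SE 0.22, adjusted p = 0.0366). In Tconv the fitted difference of -0.69 (SE 0.22, adjusted p = 0.0503) lay at the threshold. Slc7a4 passed in Tconv with median centring (adjusted p = 0.0276), the mean of probes (0.0488), the replicate block (0.023), a fit of the compared groups alone (0.0162), and without NIKtg Treg 1 or NIKtg Treg 2 (both 0.0124). The Treg call was lost without a filter on detection (adjusted p = 0.0597) and in the compared groups alone (0.0835), and the Treg difference was -0.34 in the authors' normalized values. The difference between these effects was -0.15 (95% interval -0.87 to 0.58). The Treg call was lost without each array but NIKtg Treg 2, with adjusted p of 0.0883 (WT Treg 1), 0.17 (WT Treg 2), 0.132 (NIKtg Treg 1), 0.0525 (WT Tconv 1), 0.0501 (WT Tconv 2), 0.0543 (NIKtg Tconv 1) and 0.0516 (NIKtg Tconv 2). The weakest signal called detected was log2 5.78 and 5.91 on the NIKtg Treg arrays, against 5.65 and 5.54 on those of WT Treg.

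The CD98 and LAT1 pair was measured on all arrays. Slc7a5 read 10.31 and 10.25 on WT and 10.42 and 10.29 on NIKtg Treg arrays, and 10.67 and 10.11 on WT and 9.59 and 9.71 on NIKtg Tconv arrays. Both NIKtg Tconv arrays lay below the other 6. Slc7a5 fell by 0.74 in NIKtg Tconv (SE 0.18, adjusted p = 0.0186), whereas the difference in Treg was 0.08 (95% interval -0.34 to 0.49), and the NIK effects differed by 0.81 (SE 0.25, adjusted p = 0.0364). The Tconv difference did not pass without WT Tconv 1 (adjusted p = 0.0663), NIKtg Tconv 1 (0.108) or NIKtg Tconv 2 (0.0578), nor with median centring (-0.58, adjusted p = 0.0506). With median centring the effects differed by 0.35 (adjusted p = 0.4), and without a filter on detection that call was lost as well (adjusted p = 0.0642). Slc3a2 read 8.22 and 8.10 on the WT against 7.49 and 7.92 on the NIKtg arrays of Tconv, which do not overlap, but its difference of -0.45 (SE 0.20, adjusted p = 0.128) did not pass. In Treg the Slc3a2 arrays overlapped, at 8.54 and 8.02 for WT and 8.06 and 8.22 for NIKtg. The CD8 and NK cell markers did not move one way in Tconv. Of 5 tested, 2 rose and 3 fell in NIKtg Tconv (median -1.23), while their summed signal was 12940 to 16640 in NIKtg and 4270 to 7603 in WT Tconv. Cd8a and Ncr1 were detected in no group, and the part of these cells in the results was not tested.

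The remaining light chains did not pass in any comparison, except that Slc7a6 passed in the difference of effects and between the NIKtg subsets with median centring. Slc7a6, which exchanges cationic for neutral amino acids, lay between 7.77 and 8.16 on the 8 arrays, with differences of -0.02 in Treg (95% interval -0.37 to 0.33) and 0.18 in Tconv (-0.17 to 0.53). Slc7a7, its relative that is mutated in lysinuric protein intolerance, lay between 4.93 and 5.80 and was detected on 1 array each of WT Treg, WT Tconv and NIKtg Tconv. Slc7a6os, whose gene neighbours Slc7a6 on chromosome 8, was also measured on all arrays. It read 6.91 and 7.37 on WT and 7.51 and 7.91 on NIKtg Treg arrays, and 7.71 and 7.55 on WT and 7.39 and 7.36 on NIKtg Tconv arrays. Its NIK effects were 0.57 in Treg (adjusted p = 0.0702) and -0.25 in Tconv (adjusted p = 0.339), and they differed by 0.82 (SE 0.27, adjusted p = 0.0427). That call was lost without WT Treg 1 (adjusted p = 0.121), NIKtg Treg 2 (0.101), WT Tconv 1 (0.119), WT Tconv 2 (0.0578), NIKtg Tconv 1 (0.0993) or NIKtg Tconv 2 (0.0992), and without a filter on detection (0.0747). With median centring the Slc7a6os difference was 0.09 (adjusted p = 0.865). The NIK effect of Slc7a6os in Treg passed (limma) without background correction (adjusted p = 0.0381), with an offset of 50 (0.0456) and in the authors' normalized values (0.0385). It also passed with a trended, robust fit (0.0343) and among genes detected on all 8 arrays (0.0427).

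The SLC38 family held the other members that passed in a NIK comparison on their brightest probe, among them both genes known to act at the lysosome. Slc38a7, a lysosomal exporter of glutamine, read 5.90 and 6.42 on WT and 7.29 and 6.70 on NIKtg Treg arrays, and 6.17 and 6.37 on WT and 5.86 and 6.12 on NIKtg Tconv arrays. Both NIKtg Treg arrays were above the other 6. It rose by 0.83 in NIKtg Treg (SE 0.24, adjusted p = 0.0463) and gave -0.27 in Tconv (SE 0.24, adjusted p = 0.412), a difference of effects of 1.11 (SE 0.34, adjusted p = 0.0353). The Treg call was lost without WT Treg 1 (adjusted p = 0.225), WT Treg 2 (0.059), NIKtg Treg 1 (0.213), WT Tconv 1 (0.0608), WT Tconv 2 (0.058), NIKtg Tconv 1 (0.0701) or NIKtg Tconv 2 (0.0672), and with median centring the difference was 0.33 (adjusted p = 0.344). The difference of effects was lost without WT Treg 1 (adjusted p = 0.105), NIKtg Treg 1 (0.0867), WT Tconv 1 (0.0644), WT Tconv 2 (0.0857), NIKtg Tconv 1 (0.113) or NIKtg Tconv 2 (0.0556), without a filter on detection (0.0618) and with median centring (0.38, adjusted p = 0.423). In the authors' normalized values the Treg difference was 0.45 and the difference of effects 0.58, and both passed.

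Slc38a9, the lysosomal carrier through which mTORC1 senses arginine, varied over a narrow range. Its brightest probe read 7.73 and 7.77 on WT and 7.83 and 7.72 on NIKtg Treg arrays, and 7.92 and 7.94 on WT and 7.45 and 7.59 on NIKtg Tconv arrays, again lowest on both NIKtg Tconv arrays. The gene fell by 0.41 in NIKtg Tconv (SE 0.10, adjusted p = 0.0230), with 0.03 in Treg (95% interval -0.21 to 0.27). The Tconv difference did not pass without WT Tconv 1 (adjusted p = 0.0835), WT Tconv 2 (0.0711) or NIKtg Tconv 1 (0.134), and with median centring the difference was -0.16 (adjusted p = 0.671). The difference of effects, 0.44 (SE 0.15, adjusted p = 0.0488), did not outlast the loss of any 1 of the 8 arrays (adjusted p from 0.0564 to 0.142), and it was -0.26 with median centring. A second, dimmer probe of Slc38a9 gave -0.55 in Tconv and did not pass (adjusted p = 0.273).

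Slc38a4, a plasma membrane carrier of small neutral amino acids, was close to the limit of detection. It read 5.78 and 5.50 on WT and 5.80 and 6.04 on NIKtg Treg arrays, and 5.72 and 5.83 on WT and 4.87 and 5.38 on NIKtg Tconv arrays, and it was detected on neither NIKtg Tconv array. It was at least 1.17-fold lower there than in WT Tconv (fitted difference -0.65, SE 0.19, adjusted p = 0.0370), and the NIK effects differed by 0.93 (SE 0.27, adjusted p = 0.0292). The Tconv difference did not pass without WT Treg 1 (adjusted p = 0.0505), WT Treg 2 (0.0503), WT Tconv 1 (0.105), WT Tconv 2 (0.118) or NIKtg Tconv 1 (0.199). The difference of effects was lost without WT Treg 2 (adjusted p = 0.0945), NIKtg Treg 2 (0.0665), WT Tconv 1 (0.0606), WT Tconv 2 (0.0701) or NIKtg Tconv 1 (0.0766). In the authors' normalized values the Tconv difference was -0.25 (adjusted p = 0.0728) and the effects differed by 0.36 (0.0555), with nearly the same values without background correction. The Tconv call was also lost with median centring (0.0806), without a filter on detection (0.0684) and with a trended, robust fit (0.0618). The difference of effects was 0.51 with median centring (adjusted p = 0.257) and was lost without a filter (0.0521). Slc38a2, the starvation-induced carrier SNAT2 and the neighbour of Slc38a4 on chromosome 15, read 12.01 and 12.24 on the WT and 11.52 and 11.94 on the NIKtg arrays of Tconv, a difference of -0.39 (SE 0.16, adjusted p = 0.107) that did not pass. It passed without NIKtg Tconv 2 (-0.60, adjusted p = 0.0442), in the authors' normalized values (0.0437), without background correction (0.0415) and with a trended, robust fit (0.0342). On the 4 Treg arrays it lay between 11.77 and 11.94. Its second detected probe gave -0.08 in Tconv (adjusted p = 0.693), and its remaining probe was detected on no array.

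The SLC43, SLC6, SLC36 and SLC1 members showed little that passed, with 1 disagreement between probes. Slc43a2, the gene of LAT4, which lets branched-chain amino acids pass without exchange, gave 0.03 in Treg on its brightest probe (95% interval -0.22 to 0.29). Its other probe read 5.56 and 5.53 in WT Treg and 6.20 and 6.63 in NIKtg Treg, was detected only on the latter of these groups, and was at least 1.77-fold higher (fitted difference 0.87, SE 0.15, adjusted p = 0.00772 with every probe as its own feature). Slc6a6, the taurine carrier, lay between 11.30 and 11.64 on the 8 arrays, with differences of -0.01 in Treg (95% interval -0.26 to 0.25) and 0.08 in Tconv (-0.18 to 0.33). Slc36a3, of the proton-coupled family, gave 0.60 in Treg (SE 0.19, adjusted p = 0.0587) and passed without WT Tconv 1 (adjusted p = 0.0408) or WT Tconv 2 (0.0406). Slc6a19, a neutral amino acid carrier of gut and kidney, gave 0.38 (SE 0.18, adjusted p = 0.173) and was detected on no Treg array. Slc1a7, a glutamate carrier of the retina, lay between 5.14 and 6.33 with its lowest and highest values in NIKtg cells.

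**Figure D3:**
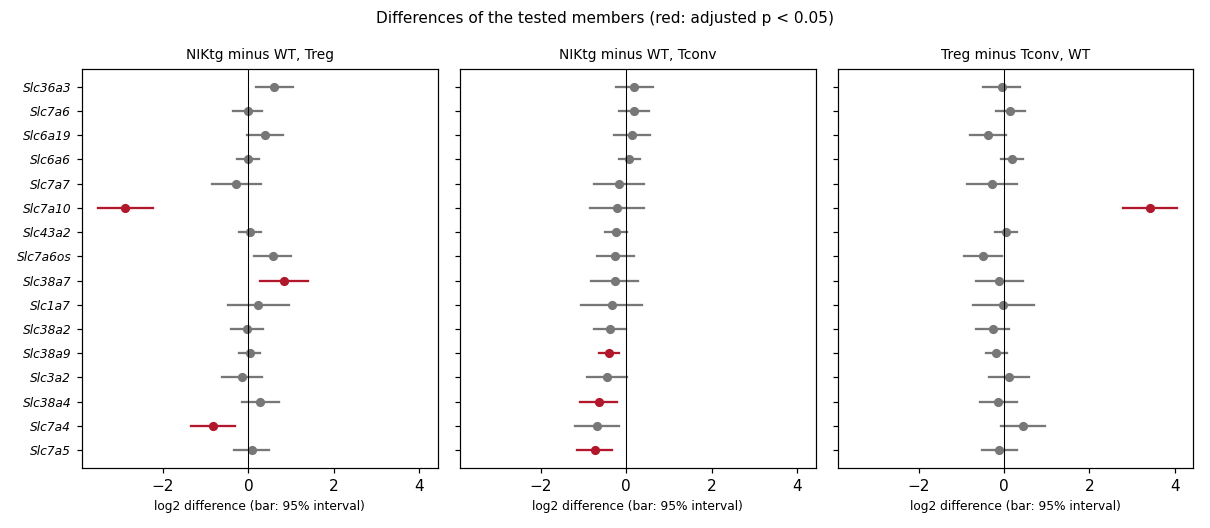
Log2 difference (horizontal axis, points) with its 95% interval (bars) for the 16 tested genes (vertical axis) in 3 comparisons, red where the adjusted p was under 0.05. In Treg Slc7a10 lies at -2.88 and in Tconv the 3 genes that passed lie between -0.41 and -0.74, while Slc7a10 at 3.42 is the gene that passed between WT Treg and WT Tconv.

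Counted over the 16 tested members, the share that passed was near that of all genes in Treg and below it in Tconv, and neither share is a result about the transporters. In the NIKtg against WT comparison of Treg, 1 of 16 members rose (Slc38a7) and 2 fell (Slc7a10 and Slc7a4), which is 18.8% against 19.9% of all 7926 genes (10.4% higher, 9.45% lower). In Tconv 3 of 16 fell (Slc7a5, Slc38a9 and Slc38a4), 18.8% against 30.1% of all genes (12.9% higher, 17.2% lower). None rose there by limma, and none had an unadjusted p under 0.05 in that direction. The median difference of the 16 was 0.03 in Treg and -0.26 in Tconv, against 0.06 and -0.08 over all genes. The NIK effects differed between the subsets for 6 of 16 members, 37.5% against 39.2% of all genes, 5 of them toward Treg and 1, Slc7a10, toward Tconv. The arrays of the 2 groups did not overlap for 7 of 16 members in Treg, against 65.9% of all genes, and for 10 of 16 in Tconv, against 70.1%. No member passed in both NIK comparisons, but Slc7a4 did, lower in each, with median centring, the mean of probes, the replicate block or without NIKtg Treg 2. Each count rested on few genes, and leaving out 1 array gave between 1 and 3 members in Treg, between 0 and 4 in Tconv and between 1 and 3 for the difference. It was 1 in Treg without WT Treg 1, WT Treg 2, NIKtg Treg 1, NIKtg Tconv 1 or NIKtg Tconv 2. In Tconv it was 0 without WT Tconv 1 or NIKtg Tconv 1 (5 and 2 at an unadjusted p under 0.05) and 1 without WT Tconv 2. For the difference it was 1 to 3 without each of the 8 arrays.

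Between the subsets, Slc7a10 was the 1 of 16 members that differed in WT cells, 6.25% against 24% of all genes. None was lower in WT Treg by limma, and 1 member, Slc7a6os at -0.49, was lower at an unadjusted p under 0.05 (adjusted p = 0.0987). In NIKtg cells 4 of 16 were higher in Treg, 25% against 39.9% of all genes, and none was lower, also at an unadjusted p under 0.05. These were Slc38a7 at 1.00 (SE 0.24, adjusted p = 0.0135), Slc38a4 at least 1.30-fold (adjusted p = 0.0135), Slc7a5 at 0.70 (SE 0.18, adjusted p = 0.0168) and Slc43a2 at 0.33 (SE 0.11, adjusted p = 0.0448). The Slc43a2 call was lost (limma) in the authors' normalized values (adjusted p = 0.232) and without background correction (0.234). The other probe of Slc43a2 was at least 1.83-fold higher in NIKtg Treg (fitted difference 0.95, SE 0.15, adjusted p = 0.00214 with every probe as its own feature). Slc38a4 did not pass without NIKtg Treg 2 (adjusted p = 0.0553) or NIKtg Tconv 1 (0.0746), nor did Slc38a7 without NIKtg Treg 1 (0.0691) or NIKtg Tconv 1 (0.0849). The Slc7a5 call was lost without NIKtg Treg 1 (0.0793), NIKtg Tconv 1 (0.0904) or NIKtg Tconv 2 (0.0523), and that of Slc43a2 without WT Treg 1 (0.0722), WT Treg 2 (0.0717), NIKtg Treg 1 (0.181), NIKtg Tconv 1 (0.135) or NIKtg Tconv 2 (0.149). The arrays did not overlap for 7 of 16 members in WT cells, against 66.3% of all genes, and for 10 of 16 in NIKtg cells, against 74.2%. Slc7a10 gave 0.76 here (SE 0.27, adjusted p = 0.0618), with both groups below detection. The count was 0 without NIKtg Tconv 1 (3 at an unadjusted p under 0.05), and 2 without NIKtg Treg 1 or NIKtg Tconv 2. These comparisons share arrays with the NIK comparisons and are not independent of them. With median centring in place of quantile normalization, the median of all genes between the NIKtg subsets moved from 0.08 to -0.47, and all 4 calls were lost. The differences were then 0.35 for Slc38a7 (adjusted p = 0.219), 0.43 for Slc38a4 (0.127), 0.16 for Slc7a5 (0.536) and -0.15 for Slc43a2 (0.531), while Slc7a10 passed at 0.69 (0.015). Relative to the median of all genes, Slc38a7, Slc38a4, Slc7a5 and Slc43a2 then lay at 0.82, 0.90, 0.63 and 0.32, against 0.93, 0.72, 0.63 and 0.26 with quantile normalization, values that carry no test.

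Genes that make, break down and sense amino acids were read from lists beside the carriers. In the amino acid response list (ATF4, its targets and regulators), 2 of 19 tested genes rose and 6 fell in NIKtg Treg, while 3 rose and 4 fell in NIKtg Tconv. Over all genes, 10.4% rose and 9.45% fell in Treg, and 12.9% rose and 17.2% fell in Tconv. No list was tested as a set. Asns, the asparagine synthetase that ATF4 is known to induce, read 7.76 and 7.77 on WT and 6.64 and 6.85 on NIKtg Treg arrays, and 5.41 and 5.68 on WT and 8.36 and 8.02 on NIKtg Tconv arrays. It fell by 1.02 in NIKtg Treg (SE 0.15, adjusted p = 0.00585) and was at least 5.88-fold higher in NIKtg Tconv than in WT Tconv (adjusted p = 8.87e-05), where neither WT array was detected. A second probe of Asns gave -0.77 in Treg (adjusted p = 0.114) and 1.35 in Tconv (adjusted p = 0.0161). Phgdh, the first enzyme of serine synthesis, read 7.56 and 7.47 in WT Treg against 5.83 and 5.72 in NIKtg Treg, and 6.05 and 6.64 on the WT against 7.83 and 7.65 on the NIKtg arrays of Tconv. Its differences were -1.74 (SE 0.19, adjusted p = 0.0018) and 1.39 (SE 0.19, adjusted p = 0.00195). Atf4 itself gave -1.86 in Treg (SE 0.31, adjusted p = 0.00795) and 1.23 in Tconv (adjusted p = 0.0223), and the Treg call was lost without WT Treg 2 (adjusted p = 0.0504). Of the 4 genes of this list that fell in NIKtg Tconv, Ppp1r15a gave -1.14 (SE 0.15, adjusted p = 0.00197). Gadd45a gave -1.26 (SE 0.19, adjusted p = 0.00295), and -1.11 on its other probe. Slc38a2 and Slc7a5, carriers that ATF4 is known to act on, had differences of -0.39 and -0.74 in NIKtg Tconv, as given above. That of Slc38a2 did not pass (adjusted p = 0.107), and its second detected probe gave -0.08. Any part of Atf4 in these values was not tested.

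**Figure D4:**
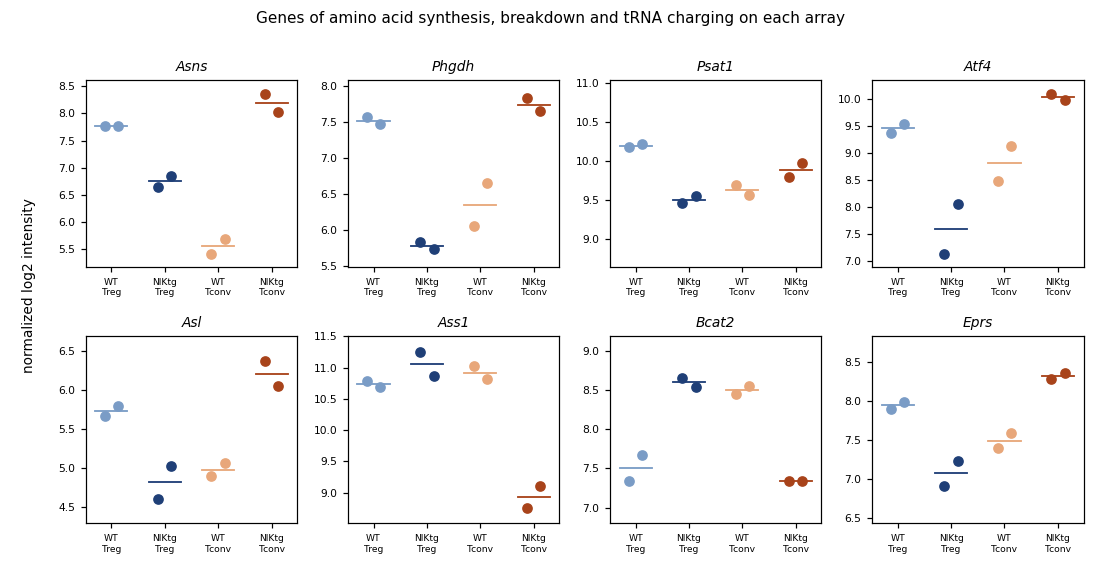
Normalized log2 intensity (vertical axis) of 8 genes of amino acid metabolism on the 8 arrays, 1 point per array with the mean of each group as a line and detection not marked. Asns, Phgdh, Atf4, Asl and Eprs are lower in NIKtg than in WT Treg and higher in NIKtg than in WT Tconv, and Bcat2 runs the opposite way.

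The promoter of Asns is shown with the amino acid response element TGATGNAAN, the motif read by ATF4, in capitals, at chr6:7693160-7693459 of GRCm38.p6, minus strand, as RefSeq gives it.
Asns: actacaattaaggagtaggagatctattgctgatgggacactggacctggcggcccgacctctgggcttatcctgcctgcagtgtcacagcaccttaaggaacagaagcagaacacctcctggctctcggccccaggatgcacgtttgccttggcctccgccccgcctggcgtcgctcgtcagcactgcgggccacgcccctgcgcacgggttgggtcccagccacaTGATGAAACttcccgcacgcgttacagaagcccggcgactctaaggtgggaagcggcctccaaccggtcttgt
On both strands, this motif was found for 4.5% of all genes with a promoter in the table, for 4 of the 41 members that have one (9.76%), and among the 13 tested members with one for Slc7a7 alone. The E-box CACGTG was found for 8.09% of all genes, for 7 of the 41 members, and among the tested ones for Slc1a7 and Slc38a7. Promoters of Slc6a6, Slc7a4 and Slc7a5 were not analysed here.

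Among enzymes of amino acid and polyamine metabolism, 4 of 23 rose and 2 fell in NIKtg Treg, and 4 rose and 5 fell in NIKtg Tconv. The shares over all genes were 10.4% and 9.45% in Treg and 12.9% and 17.2% in Tconv. Bcat2, which starts the breakdown of branched-chain amino acids, read 7.34 and 7.67 on WT and 8.66 and 8.55 on NIKtg Treg arrays, and 8.45 and 8.55 on WT and 7.34 and 7.35 on NIKtg Tconv arrays. It rose in Treg (1.10, SE 0.13, adjusted p = 0.00231) and fell by 1.16 in Tconv (SE 0.13, adjusted p = 0.000997). Asl, which releases arginine from argininosuccinate, fell by 0.91 in Treg (SE 0.17, adjusted p = 0.0127), where it was near the limit of detection for WT and below it for NIKtg, and was at least 1.49-fold higher in NIKtg Tconv (adjusted p = 0.00235). The Treg call of Asl was lost without WT Treg 1 (adjusted p = 0.0576), WT Treg 2 (0.074) or NIKtg Treg 1 (0.0532). Ass1, the enzyme of the step before, read 11.02 and 10.82 on the WT and 8.76 and 9.10 on the NIKtg arrays of Tconv, and fell by 1.99 (SE 0.17, adjusted p = 0.00045). Odc1, the first enzyme of polyamine synthesis, rose by 1.11 in NIKtg Tconv (SE 0.10, adjusted p = 0.000521). Glud1, a glutamate dehydrogenase, gave -1.66 in Treg and 1.61 in Tconv on the brighter of its probes, whereas the dimmer gave -0.07 and 0.00, so its change is uncertain.

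Among genes that sense amino acids for mTORC1, 4 of 34 rose and 1 fell in NIKtg Treg, and 1 rose and 8 fell in NIKtg Tconv. For this list and the synthetases below, the shares over all genes were 10.4% and 9.45% in Treg and 12.9% and 17.2% in Tconv. Eif4ebp1, the translation repressor that mTORC1 inactivates, fell by 1.59 in NIKtg Tconv (SE 0.20, adjusted p = 0.00153). Sesn1, a leucine-responsive inhibitor of this pathway, fell by 1.10 (SE 0.19, adjusted p = 0.00536) and by 1.00 on its other probe. Castor2 gave -0.99 on its brightest probe and 0.06 on the other. Mlst8, a subunit of mTORC1, gave -0.58, -0.67 and -0.62 on its 3 probes in Tconv, all of which passed. In Treg it rose by 0.48 (SE 0.13, adjusted p = 0.0418), a call lost without WT Treg 1 (0.123), WT Treg 2 (0.174), NIKtg Treg 1 (0.203), NIKtg Tconv 1 (0.0647) or NIKtg Tconv 2 (0.0636), and without a filter on detection (0.0697). With median centring Mlst8 gave 0.13 in Treg (adjusted p = 0.69). Of 16 aminoacyl-tRNA synthetases, 3 rose and 1 fell in Treg, and 2 rose and 1 fell in Tconv. Eprs, which charges the tRNAs of glutamate and proline, fell by 0.87 in Treg (adjusted p = 0.00654) and rose by 0.82 in Tconv (adjusted p = 0.0044), but its other probe passed in neither comparison. Sars, for serine, gave 0.74 and -0.70 on its brightest probe and -0.47 and 0.14 on the other.

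Carriers of amino acids in other families were tested for 12 genes, of which 1 rose in NIKtg Treg, and 1 rose and 3 fell in NIKtg Tconv. For these and the regulators below, the shares over all genes were 10.4% and 9.45% in Treg and 12.9% and 17.2% in Tconv. Slc17a9, a vesicular carrier best known for loading nucleotides, fell by 1.78 in Tconv (SE 0.19, adjusted p = 0.000914), and Slc15a3, a lysosomal carrier of histidine and peptides, rose by 1.55 (SE 0.32, adjusted p = 0.0115), a call lost without NIKtg Tconv 1 (adjusted p = 0.0695). Slc25a38, the mitochondrial glycine carrier, rose by 0.39 in Treg (SE 0.10, adjusted p = 0.0351), a call lost without any 1 of the WT Treg, NIKtg Treg and NIKtg Tconv arrays (adjusted p from 0.056 to 0.188). With median centring Slc25a38 gave 0.06 (adjusted p = 0.85). Of 8 tested regulators of nutrient transport, 1 rose and 2 fell in Treg, and 1 rose in Tconv. Hif1a, the oxygen-regulated transcription factor, fell by 1.89 in Treg (SE 0.20, adjusted p = 0.00176) and rose by 1.12 in Tconv (SE 0.20, adjusted p = 0.00638), a call lost without NIKtg Tconv 1 (adjusted p = 0.0537). Passing in both NIK comparisons with opposite signs was found for 3 of 19 genes of the amino acid response, 4 of 23 of metabolism, 2 of 16 synthetases, 2 of 34 of sensing, 1 of 8 regulators and 0 of 16 members, against 8.05% of all genes.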

How the data were processed

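RNA of 8 samples was measured on one-colour Illumina arrays. GenomeStudio 2010.1 was used, per the submitters' processing notes, and how the authors normalized is not stated in the labels. The authors deposited unnormalized intensities, each followed by a detection p-value per the file headers, and normalized intensities with near-equal medians (118.6 to 118.8), used here as an alternative.

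Here the unnormalized intensities were background corrected (limma 3.58.1 in R 4.3.3, nec with negative controls inferred from the detection p-value, offset 16). The corrected intensities were then taken to log2 and quantile normalized. The 11526 probes with a detection p under 0.01 on 2 or more arrays entered, and each gene was read on its brightest kept probe (7926 genes). All 8 arrays entered 1 linear model (lmFit, eBayes, two-sided, 4 residual degrees of freedom), with Benjamini-Hochberg adjustment over all genes and a threshold of 0.05. Intervals are at 95% and come from the same fit. The number of arrays limits the precision. The script was tested on simulated data. Every member past the threshold was named, with up to 4 others per comparison, and up to 4 genes of each related list per NIK comparison. The members and lists were chosen with earlier results of these data known. Promoters came from RefSeq (GRCm38.p6) and were found for 41 of 57 members (13 of 16 tested). The replicate numbers were not used as pairs.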

Additional observations from a re-analysis of the deposited data

Results flagged for a closer look

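NIK effects that differed between Treg and Tconv by the test of the difference itself (limma, Treg minus Tconv effect) were found for 6 members. These were Slc7a10 (-2.67, adjusted p = 0.00237), Slc38a7 (1.11, adjusted p = 0.0353), Slc38a4 (0.93, adjusted p = 0.0292), Slc7a6os (0.82, adjusted p = 0.0427), Slc7a5 (0.81, adjusted p = 0.0364) and Slc38a9 (0.44, adjusted p = 0.0488). The Slc7a5 difference was lost without WT Treg 1 (adjusted p = 0.0814), WT Treg 2 (0.0955), NIKtg Treg 1 (0.0945), NIKtg Treg 2 (0.0503), WT Tconv 1 (0.0603), NIKtg Tconv 1 (0.108) or NIKtg Tconv 2 (0.0676). With median centring 5 of the 6 differences did not pass: Slc38a7 (0.38), Slc38a4 (0.51), Slc7a6os (0.09), Slc7a5 (0.35) and Slc38a9 (-0.26). Slc7a10 kept its call in 17 of 17 alternatives in which it was tested.

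Among the related genes named, 11 passed in both NIK comparisons with opposite signs. The difference between the effects was below 0 for Asns (-3.66), Glud1 (-3.27), Phgdh (-3.13), Atf4 (-3.09), Hif1a (-3.01), Asl (-2.14) and Eprs (-1.70). It was above 0 for Bcat2 (2.26), Sars (1.44), Itfg2 (1.36), a part of an mTORC1 regulator complex, and Mlst8 (1.06). With median centring the Mlst8 difference was 0.53 (adjusted p = 0.181) and that of Itfg2 0.68 (0.0818), and with the mean of probes that of Sars was 0.42 (0.129). The Treg call of Itfg2 was lost with median centring (0.05, limma adjusted p = 0.892) and without a filter on detection (0.0759). Sars lost its Treg call with median centring (0.36, limma adjusted p = 0.201) and with the mean of probes (0.13, adjusted p = 0.518). With every probe as its own feature, the other probe of Glud1 gave -0.08 (adjusted p = 0.851). That of Eprs gave -0.69 (0.275) and that of Sars -0.60 (0.0828), while the other probes of Asns and Mlst8 kept their sign and passed. On the brightest probes with quantile normalization, the adjusted p of the 11 differences (limma) lay between 0.000182 and 0.00479. The genes were picked for opposite signs in both comparisons, so low values here were built in and add no support. Groups of 2 arrays were too small to look for outlying samples.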

How the results depend on the processing

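The counts of members moved with several settings. Without a filter on detection, 1 member passed in the NIK comparison of Treg (Slc7a10) and 2 for the difference of effects (Slc7a10 and Slc6a8). Between the NIKtg subsets 5 then passed, namely Slc36a2, Slc38a4, Slc38a7, Slc6a8 and Slc7a5. Slc6a8 and Slc36a2 had no tested probe in the main fit. With median centring Slc7a10 and Slc7a4 still passed in Treg, with Slc38a7 lost, and Slc7a10 still passed between the WT subsets. In the other comparisons the members that passed were largely other ones: 1 in Tconv (Slc7a4, with Slc7a5, Slc38a4 and Slc38a9 lost), 2 for the difference of effects (Slc7a10 and Slc7a6, with the other 5 lost) and 2 between the subsets in NIKtg cells (Slc7a10 and Slc7a6, with all 4 lost). Among genes detected on all 8 arrays, the comparison of the subsets had 2 in NIKtg cells and 0 in WT cells (limma; 1 of 8 at an unadjusted p under 0.05), where Slc7a10 was not tested. Leaving out 1 array gave 1 to 3 members in Treg, 0 to 4 in Tconv, 1 to 3 for the difference of effects, 1 in WT cells and 0 to 5 in NIKtg cells. A detection p under 0.05 gave 30 detected probes in place of 19. Median centring turned 2 values around, Slc38a9 in the difference of effects (-0.26) and Slc43a2 between the NIKtg subsets (-0.15), and it moved the median of all genes from 0.06 to -0.28 in Treg and from -0.08 to 0.09 in Tconv. The cause of these moves was not tested. With the replicate number as a block (replicate block), 2 members passed in Treg, 4 in Tconv, 5 for the difference, 1 in WT and 3 in NIKtg cells. Deviations of same-numbered arrays correlated between -0.0189 and 0.143, below 0 for 2 of 6 pairs of groups, so the numbers were not taken as pairs. The slide as a block was not run, since no slide is given. Without background correction fitted differences of dim probes shrank, as for Asns in Tconv (2.64 to 1.51), so stated folds rest on it. Low signal limits Slc7a4, Slc38a4 and the members at 2 or 3 detected arrays.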
